A study of Mus musculus with 15 samples.

Results

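Iron handling by the mouse liver was followed through 10 genes, Hamp, Tfrc, Tfr2, Trf, Hpx, Cp, Fth1, Ftl1, Slc40a1 and Slc11a2, chosen by name and read from the 24493 genes of the deposited RNA-seq table. All 10 passed the filter on low values, as did 13905 genes in all. Cells had been isolated straight from liver and sequenced as bulk RNA in 5 groups of 3 libraries: reprogrammed cells, biliary epithelial cells and hepatocytes of mice fed DDC, and biliary epithelial cells and hepatocytes of untreated mice. Every mouse had received AAV-TBG-Cre, a virus in which the hepatocyte promoter TBG drives Cre recombinase, at 4 weeks of age, and the DDC diet began at 5 weeks of age and lasted 4 weeks. DDC is a porphyrinogenic diet additive that injures bile ducts, and hepatocytes of injured livers can take on biliary features, which is what the series title calls reprogrammed. Strain, sex, reporter allele, sorting markers and the animals behind each library are not stated in the labels, so each p-value reflects the scatter among these libraries, which may be technical.

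Iron travels in plasma bound to transferrin (Trf) and enters cells through transferrin receptor 1 (Tfrc). Cells store it in ferritin, a shell of heavy (Fth1) and light (Ftl1) chains, and release it through ferroportin (Slc40a1), which the hepatocyte hormone hepcidin (Hamp) blocks and degrades. Hepatocytes read plasma iron through transferrin receptor 2 (Tfr2) and the BMP and SMAD pathway, which drive Hamp transcription, and inflammation drives it through interleukin signalling and STAT3. Inside the cell, iron regulatory proteins bind a hairpin called the iron-responsive element when iron is scarce, which stabilises Tfrc mRNA and represses translation of the ferritin chains and of ferroportin.

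Matches to the iron-responsive element are shown because they divide the genes by how iron is known to act on their mRNA. The pattern searched was a bulged C, 5 bases, the loop CAGTGN and 5 bases able to pair with the first 5, G-T pairs allowed, on the transcript strand of the GENCODE M21 annotation of GRCm38. Each match is printed 5′ to 3′ with 5 bases on either side, and capitals mark the bulged C and the loop of 6 bases.
Tfrc 3′ UTR, chr16:32631220-32631246, plus strand: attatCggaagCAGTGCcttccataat
Tfrc 3′ UTR, chr16:32631599-32631625, plus strand: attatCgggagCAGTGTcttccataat
Tfrc 3′ UTR, chr16:32631664-32631690, plus strand: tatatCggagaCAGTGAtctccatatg
Tfrc 3′ UTR, chr16:32631711-32631737, plus strand: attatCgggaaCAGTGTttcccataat
Fth1 5′ UTR, chr19:9982733-9982759, plus strand: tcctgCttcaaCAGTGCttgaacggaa
Ftl1 5′ UTR, chr7:45459780-45459806, minus strand: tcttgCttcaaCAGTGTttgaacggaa
Slc40a1 5′ UTR, chr1:45925466-45925492, minus strand: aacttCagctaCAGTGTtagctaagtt

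Tfrc held 4 matches in its 3′ UTR, where the element governs mRNA stability, whereas Fth1, Ftl1 and Slc40a1 each held 1 in the 5′ UTR, where it governs translation. Over all annotated genes, 31 of 20899 (0.148%) had a match in a 5′ UTR and 129 of 21022 (0.614%) in a 3′ UTR. The other members had none in these windows under this pattern, which says nothing of other forms of the element. Among genes on the pathway lists and marker lists used below, Alas2, the erythroid form of the first enzyme of heme synthesis, had a match in its 5′ UTR and Bola3, an iron-sulfur cluster factor, in its 3′ UTR.

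The other members lie, in GRCm38, at chr16:32608920-32632794 (Tfrc), chr5:137569840-137587481 (Tfr2), chr3:19957054-20009145 (Cp) and chr19:9980598-9985098 (Fth1) on the plus strand. On the minus strand are Trf (chr9:103204001-103230444), Hpx (chr7:105591613-105600137), Ftl1 (chr7:45457944-45459884), Slc40a1 (chr1:45908068-45926523) and Slc11a2 (chr15:100387898-100425072).

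The start of Hamp (chr7:30942368-30944032, minus strand) is shown because it carries the letters through which the BMP and the inflammatory inputs are known to act on hepcidin. The RefSeq sequence of the 120 bases before the start (GRCm38.p6, chr7:30944030-30944149, minus strand) is printed with GGCGCC, a BMP-responsive motif, and TTCNNNGAA, a STAT motif, in capitals.
Hamp promoter: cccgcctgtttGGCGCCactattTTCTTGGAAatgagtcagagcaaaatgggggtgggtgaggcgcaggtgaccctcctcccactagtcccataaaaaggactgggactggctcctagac

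GGCGCC began 109 bases and TTCNNNGAA 97 bases before the start, and the motifs do not overlap. Both read the same on either strand, and 9.59% and 7.02% of 32851 promoters held them within 250 bases before the start. Of the 7 members with a promoter in that table, Tfrc also held GGCGCC, at 89 bases. A match is a description of letters only.

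The level used throughout is scaled TPM, the deposited TPM (a level corrected for transcript length and library total) divided by a factor for each library, and differences are on the log2(scaled TPM + 1) scale with the standard error of the limma fit. A gene was called when its Benjamini-Hochberg adjusted p over all genes was below 0.05 and its log2 difference at least 1 in size. The scaling matters between cell types. As deposited, the median gene stood 1.06 higher on the log2 scale in DDC biliary cells and 0.71 higher in DDC reprogrammed cells than in DDC hepatocytes, 1.11 higher in untreated biliary cells than in untreated hepatocytes, and 0.34 lower in reprogrammed than in biliary cells. Between DDC and untreated cells of the same type it shifted by 0.17 in hepatocytes and 0.07 in biliary cells. Scaling centred these medians within 0.15 of 0, so directions between cell types are relative to the median gene and are given with the deposited values where they turn.

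The biliary label was checked on Krt19, a biliary keratin, which ranged over 234 to 314 scaled TPM for reprogrammed cells, 465 to 672 for DDC biliary cells, 1.41 to 1.64 for DDC hepatocytes, 364 to 573 for untreated biliary cells and 0 to 0.722 for untreated hepatocytes. Transcripts of the other cell type were present in the biliary and reprogrammed libraries. The median deposited TPM of 25 hepatocyte markers, as a percentage of the hepatocyte mean of the same treatment, was 49.9%, 92.5% and 63.0% in the 3 reprogrammed libraries, 31.3%, 47.5% and 23.6% in DDC biliary libraries, and 49.0%, 42.3% and 41.1% in untreated biliary libraries. In bulk RNA, fewer cells of a type and less RNA per cell cannot be told apart.

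Hepcidin mRNA was abundant in hepatocytes and rose under DDC. Hamp stood at 5207, 13189.7 and 17852 scaled TPM in DDC hepatocytes and at 3866, 3935 and 1506 in untreated hepatocytes. All DDC libraries lay above all untreated ones, and the first DDC library lay closest to them. The means differed 3.90-fold (log2 difference 1.91 ± 0.66, adjusted p = 0.0467). This call was narrow: it was lost when DDC library 2 or 3 or any untreated library was left out, with adjusted p between 0.0633 and 0.168, and also with no filter on low values (0.0763) and with only the 2 groups in the fit (0.0998).

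In biliary cells Hamp was 1132, 3017 and 1248 scaled TPM under DDC and 733, 627 and 240.1 without it. These groups did not overlap either, and the log2 difference of 1.75 ± 0.66 did not pass the test (adjusted p = 0.068), although it did on TPM as deposited (log2 difference 1.86, adjusted p = 0.0326). The DDC responses of biliary cells and hepatocytes differed by -0.16 ± 0.93, a standard error too wide to tell whether they were alike. Reprogrammed cells had 1768, 7375 and 4554 scaled TPM, a range that reached into that of DDC hepatocytes.

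Hamp2, a neighbouring copy whose coding sequence is 92.5% identical to that of Hamp (236 of 255 aligned positions), was counted separately in the table at far lower levels. It had 92.6, 594 and 767 scaled TPM in DDC hepatocytes and 267, 582 and 517 in untreated hepatocytes, overlapping groups. How reads shared by the copies were divided is not stated, so the split between them is uncertain.

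**Figure D1:**
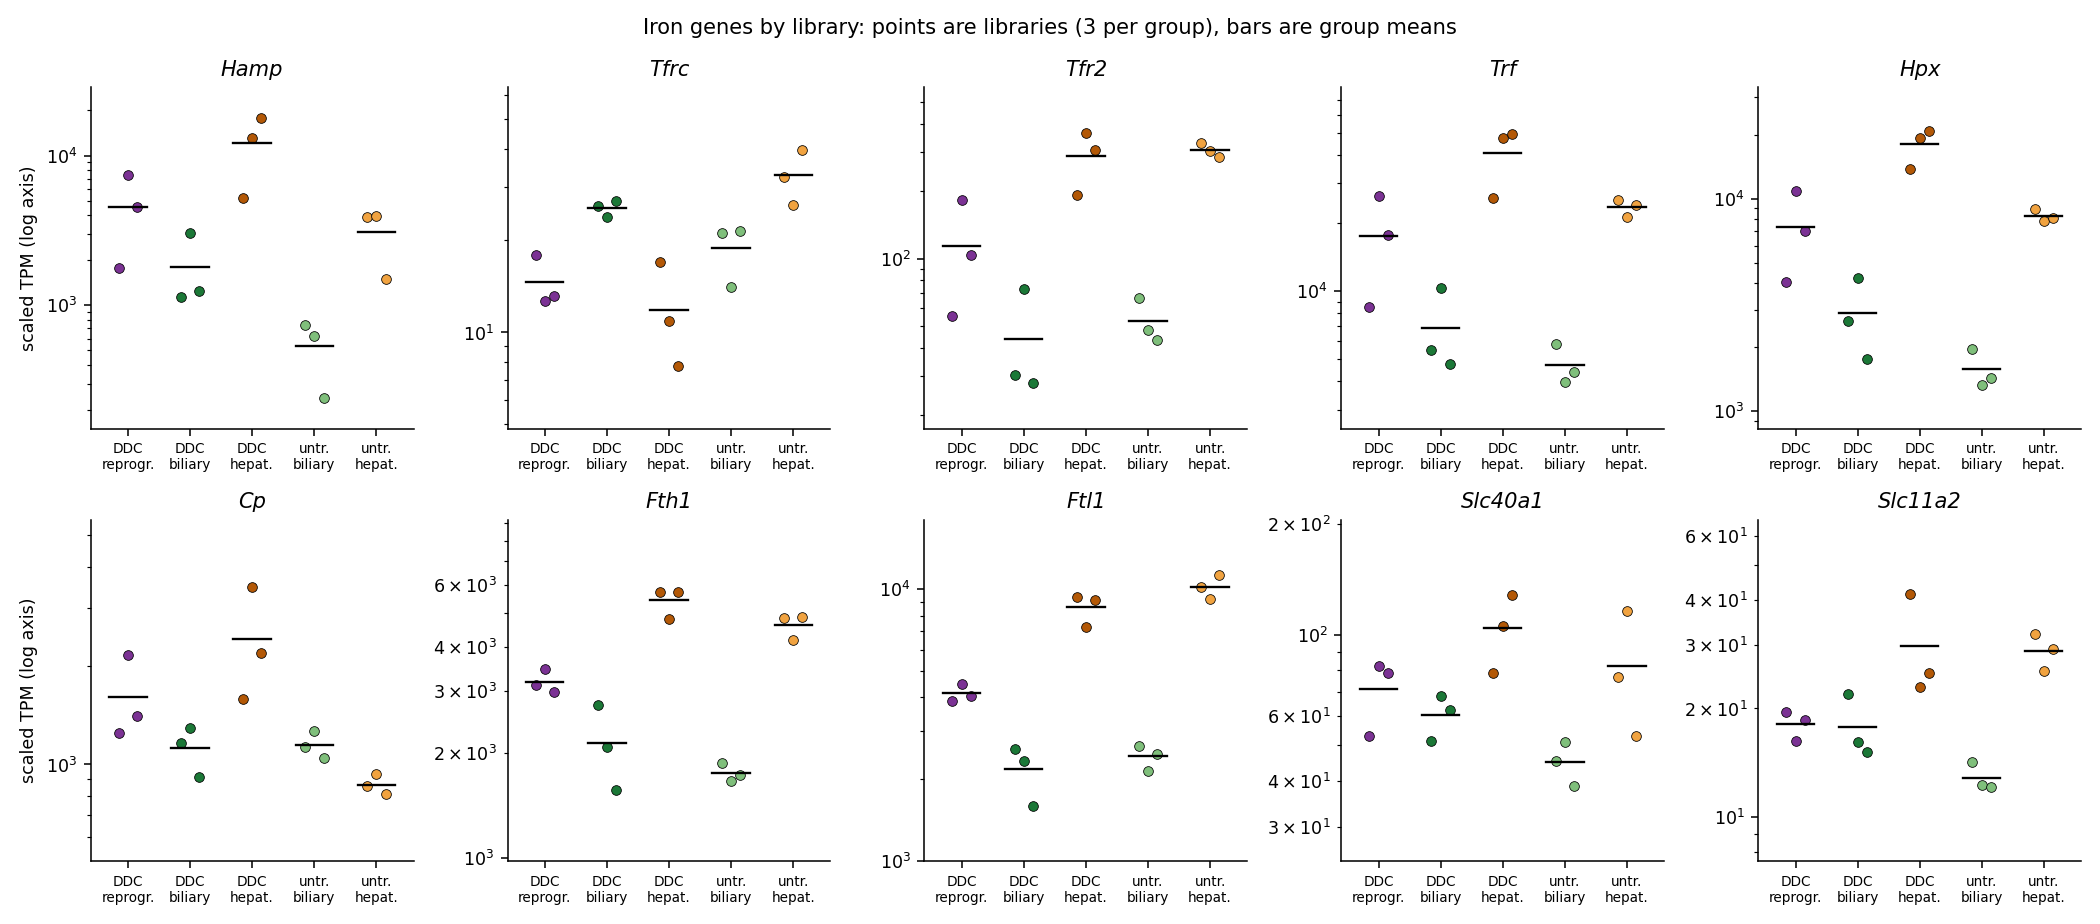
Scaled TPM (log axis, its own range in each panel) of the 10 iron genes in each of the 15 libraries; points are libraries and bars are means of 3. Hamp, Hpx and Cp lay higher and Tfrc lower in every DDC hepatocyte library than in every untreated one.

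Tfrc fell in DDC hepatocytes. It had 17, 10.9 and 7.75 scaled TPM in DDC hepatocytes and 32.3, 26.2 and 39.7 in untreated hepatocytes. No DDC library reached the lowest untreated one. Tfrc fell 2.75-fold (log2 difference -1.43 ± 0.25, adjusted p = 0.000998), and the call held with each library left out in turn, with log2 differences from -1.71 to -1.19. In biliary cells the values were 26.0, 23.8 and 26.9 under DDC and 21.1, 14.1 and 21.4 without it, which also do not overlap, in the opposite direction (log2 difference 0.44 ± 0.25, adjusted p = 0.212, not called). The difference between the 2 responses was itself past the test, at 1.87 ± 0.35 for biliary cells minus hepatocytes (adjusted p = 0.00339), and stayed so with each of 12 libraries left out (adjusted p from 0.000741 to 0.0105). On TPM as deposited it was 1.69 (adjusted p = 0.0196).

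Tfr2, the hepatocyte receptor that senses transferrin iron, was not called for DDC in either cell type. It had 192, 365 and 305 scaled TPM in DDC hepatocytes and 328, 304 and 285 in untreated hepatocytes, with overlapping groups (log2 difference -0.14 ± 0.42, adjusted p = 0.866). In biliary cells it had 30.3, 73.0 and 27.9 under DDC and 66.7, 48.3 and 43.5 without it (log2 difference -0.38 ± 0.42, adjusted p = 0.539).

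Of the secreted proteins, Cp rose under DDC in hepatocytes. Ceruloplasmin (Cp), the copper ferroxidase that oxidises exported iron for transferrin, had 1585, 3472 and 2182 scaled TPM in DDC hepatocytes and 857, 934 and 812 in untreated hepatocytes. It rose 2.78-fold (log2 difference 1.40 ± 0.27, adjusted p = 0.00213), with every DDC library above every untreated one and the call held with each library left out. In biliary cells Cp had 1162, 1294 and 918 under DDC and 1131, 1263 and 1049 without it, overlapping ranges with a log2 difference of -0.04 ± 0.27 (adjusted p = 0.935).

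The 2 Cp responses differed by -1.44 ± 0.38, biliary cells minus hepatocytes (adjusted p = 0.0263). That call was lost when DDC biliary library 3, untreated biliary library 1 or 2, or untreated hepatocyte library 1 or 3 was left out, with adjusted p between 0.0548 and 0.068.

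Hemopexin (Hpx), the plasma scavenger of free heme, had 13780.1, 19248 and 20856 scaled TPM in DDC hepatocytes and 8915, 7808 and 8081 in untreated hepatocytes. The groups did not overlap, and the log2 difference of 1.10 ± 0.39 fell just short of the threshold (adjusted p = 0.0502). It passed on TPM as deposited (log2 difference 1.37, adjusted p = 0.00328), after quantile normalization (1.97, adjusted p = 0.000234) and without DDC hepatocyte library 1 (adjusted p = 0.0402). It also passed with a pseudocount of 5 (adjusted p = 0.0492) and with a filter of 5 TPM (adjusted p = 0.0391). In biliary cells Hpx had 2647, 4240.4 and 1761 under DDC and 1967, 1325 and 1437 without it (log2 difference 0.80 ± 0.39, adjusted p = 0.147).

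Transferrin (Trf) was the most abundant member in every group by mean. It had 25668, 47242 and 49596 scaled TPM in DDC hepatocytes and 25257, 21332 and 24080 in untreated hepatocytes. The lowest DDC library stood just above the highest untreated one, and the log2 difference of 0.74 ± 0.47 did not pass (adjusted p = 0.271), although it did as deposited (1.0, adjusted p = 0.0403). The biliary values were 5513, 10339.7 and 4757 under DDC and 5867, 3961 and 4393 without it (log2 difference 0.47 ± 0.47, adjusted p = 0.495).

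Ferritin heavy and light chain mRNA lay below Trf, Hpx and Hamp by mean in DDC hepatocytes and above the other members. Neither chain passed the test for DDC. Fth1 had 5741, 4816 and 5747 scaled TPM in DDC hepatocytes and 4819, 4197 and 4871 in untreated hepatocytes (log2 difference 0.23 ± 0.21, adjusted p = 0.459). Ftl1 had 9357, 7287 and 9156 in DDC hepatocytes and 10219, 9239 and 11254 in untreated hepatocytes (log2 difference -0.26 ± 0.23, adjusted p = 0.448). When scaled, the light chain had a lower mean and the heavy chain a higher one, each within overlapping ranges, and the light chain difference turned to 0.01 as deposited and 0.29 after quantile normalization. In biliary cells Fth1 had 2738, 2073 and 1569.7 under DDC and 1865, 1662 and 1732 without it, and Ftl1 had 2589, 2330.4 and 1597 under DDC and 2644, 2152 and 2479 without it.

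The ratio of Ftl1 to Fth1, a measure chosen after its values had been seen, does not depend on the scaling. The values were 1.25, 1.29 and 1.36 for the reprogrammed libraries, 0.946, 1.12 and 1.02 for DDC biliary libraries, 1.63, 1.51 and 1.59 in DDC hepatocytes, 1.42, 1.29 and 1.43 in untreated biliary cells and 2.12, 2.20 and 2.31 in untreated hepatocytes. DDC groups lay below the untreated group of the same cell type without overlap, at 1.58 ± 0.0598 against 2.21 ± 0.0954 in hepatocytes and 1.03 ± 0.0898 against 1.38 ± 0.0755 in biliary cells (SD, n = 3 each). Reprogrammed cells, at 1.30 ± 0.0522, lay between DDC biliary cells and DDC hepatocytes. Each of the 6 comparisons gave 0.1 in an exact two-sided permutation test (0.1 after Benjamini-Hochberg adjustment), the smallest p that this test allows for 3 against 3 libraries, so it cannot reach 0.05. Ferritin chains have processed copies in the mouse genome, and how reads shared with them were divided is not stated.

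**Figure D2:**
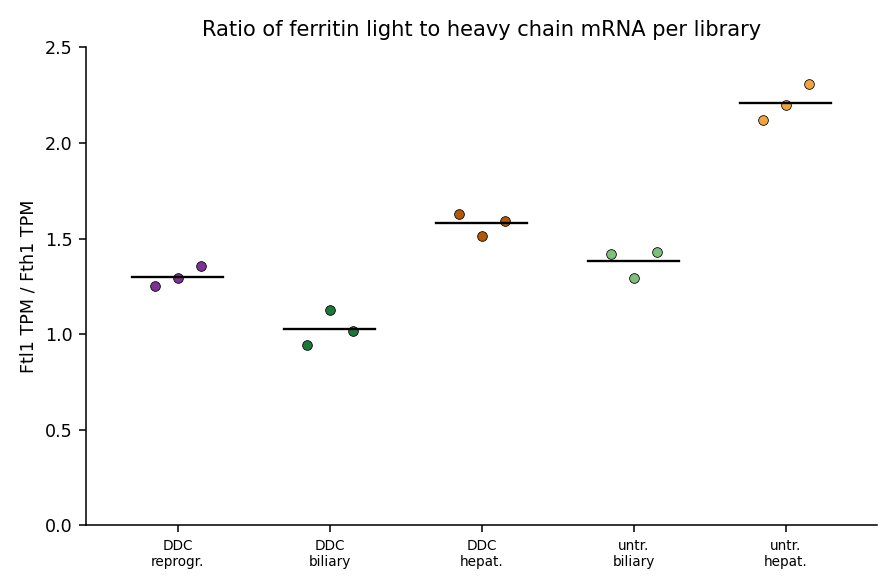
Ratio of Ftl1 TPM to Fth1 TPM in each library (axis from 0); points are libraries and bars are means of 3. Untreated hepatocytes sit between 2.12 and 2.31 and DDC biliary cells between 0.946 and 1.12, with the other groups between them.

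Neither transporter was called for DDC. Ferroportin (Slc40a1), the only known cellular iron exporter, had 78.7, 106 and 129 scaled TPM in DDC hepatocytes and 76.9, 116 and 52.9 in untreated hepatocytes, overlapping groups with a log2 difference of 0.39 ± 0.27 (adjusted p = 0.314). In biliary cells it had 51.4, 68.1 and 62.3 under DDC and 45.4, 51.2 and 38.7 without it (log2 difference 0.42 ± 0.27, adjusted p = 0.274). Slc11a2 encodes DMT1, which carries ferrous iron across membranes. Its values were 41.6, 22.9 and 25.1 in DDC hepatocytes and 32.2, 25.3 and 29.1 in untreated hepatocytes (log2 difference 0.00 ± 0.20, adjusted p = 1), and 21.9, 16.2 and 15.1 in DDC biliary cells against 14.2, 12.3 and 12.1 in untreated biliary cells (log2 difference 0.42 ± 0.20, adjusted p = 0.141).

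In hepatocytes 3 of the 10 genes were called for DDC, Hamp and Cp higher and Tfrc lower, where 11% of all genes tested were called (6.59% higher and 4.42% lower). In biliary cells limma called none of the 10, where 10.4% of all genes were called (5.68% higher and 4.74% lower), and 1 of the 10, Hamp, had an unadjusted p under 0.05 (0.0202). For the difference between the responses 2 were called, Tfrc above 0 and Cp below it, where 8.4% of all genes were called (3.46% above and 4.94% below). With 10 genes, these counts are too small to set the members apart from the background. Taken as a share of each library, the 10 mRNAs made up 4.78%, 6.61% and 6.86% of TPM in DDC hepatocytes and 3.04%, 2.92% and 2.99% in untreated hepatocytes. They made up 2.40%, 3.30% and 1.97% in DDC biliary cells and 1.91%, 1.64% and 1.64% in untreated biliary cells.

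**Figure D3:**
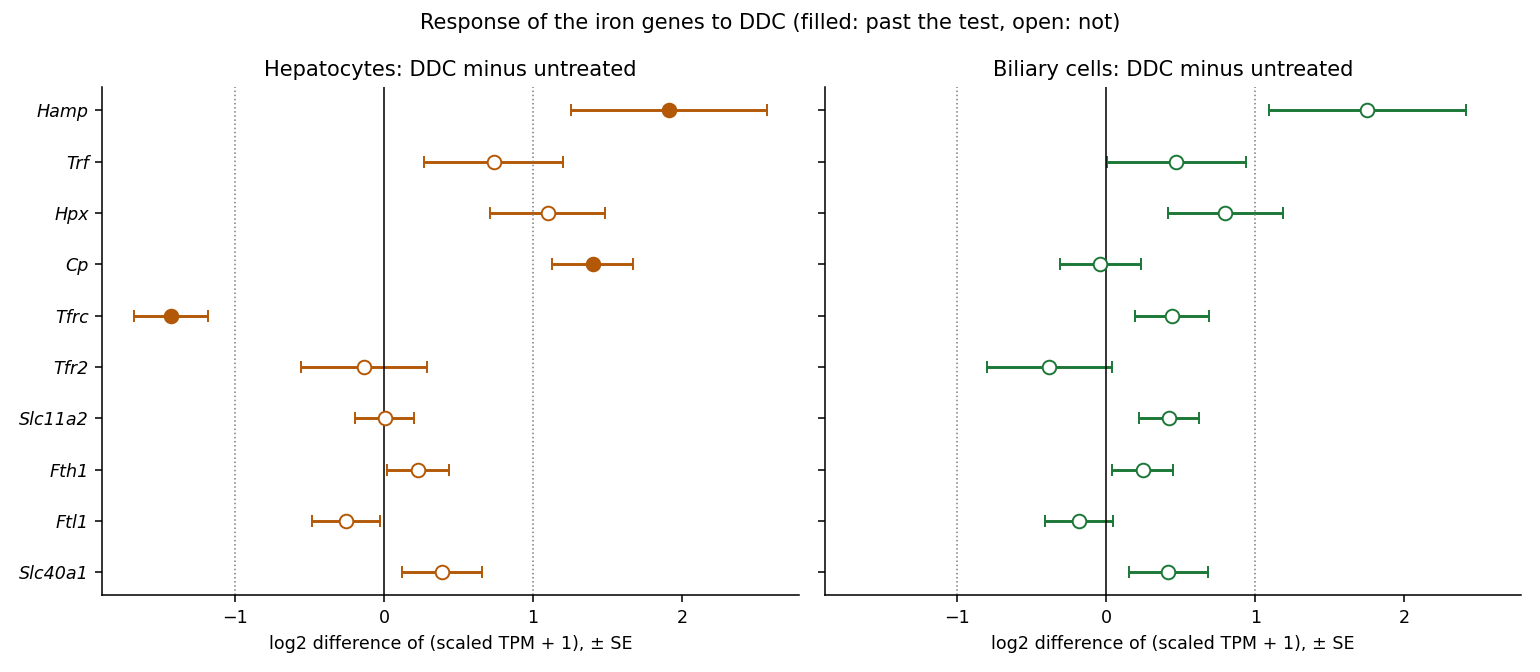
Log2 difference of scaled TPM + 1 between DDC and untreated cells for the 10 iron genes, in hepatocytes (left) and biliary cells (right); bars are standard errors of the limma fit, dotted lines mark the threshold of 1, and filled points were called. Tfrc at -1.43 in hepatocytes and 0.44 in biliary cells is the only member whose difference exceeded 1 in size downward.

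Of 18 tested genes that feed BMP, SMAD and HFE signals into hepcidin, 4 rose and none fell in DDC hepatocytes, where 6.59% of all genes rose and 4.42% fell, with a median log2 difference of 0.16 against 0.01 over all genes. Id1, a direct BMP target, had 33.7, 149.8 and 176 scaled TPM in DDC hepatocytes and 3.07, 2.22 and 2.83 in untreated hepatocytes (log2 difference 4.72 ± 0.47, adjusted p = 1.54e-05). Bmp6, the ligand that reports liver iron stores, had 19.1, 6.82 and 7.0 in DDC hepatocytes and 0.292, 0.583 and 0.470 in untreated hepatocytes (2.90 ± 0.32, adjusted p = 3.7e-05). Neither gene's groups overlapped, and both calls held with each library left out. Bmp6 is known mainly from liver endothelial cells, whose 9 markers summed to 15 to 19.8 scaled TPM in DDC hepatocytes and 9.64 to 11.1 in untreated hepatocytes. Of the 9, 1 was called higher and 0 lower, with a median log2 difference of 0.20. The called marker was Stab1, with 3.39, 6.94 and 4.64 in DDC hepatocytes and 0.22, 0.434 and 0.344 in untreated hepatocytes. The part of endothelial cells in the Bmp6 result was not tested. The 12 biliary markers summed to 288 to 605 scaled TPM in DDC hepatocytes and 20.5 to 26.4 in untreated hepatocytes, most of it in DDC hepatocytes from Spp1 (440.4, 253 and 563, against 5.91, 8.27 and 4.2 in untreated hepatocytes). Of the 12, 4 were called higher, with a median log2 difference of 0.44. The 9 stellate and fibroblast markers summed to 14.8 to 23.9 in DDC hepatocytes and 1.41 to 5.38 in untreated hepatocytes. Biliary cells carried more Bmp6 than hepatocytes, and the part of these cell types in the results for Id1, Bmp6 and Lcn2 was not tested either.

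The inhibitory SMADs rose with them. Smad7 had 6.16, 23.8 and 16.2 scaled TPM in DDC hepatocytes and 3.73, 2.21 and 3.48 in untreated hepatocytes (log2 difference 1.83 ± 0.35, adjusted p = 0.00215). Smad6, named here after its values were seen, rose by a log2 difference of 1.2 (adjusted p = 0.000999). Atoh8, another transcription factor induced by BMP signals, had 12.7, 38.6 and 51.4 in DDC hepatocytes and 22.1, 15.8 and 17.1 in untreated hepatocytes, overlapping groups without a call. Within the DDC hepatocytes, library 1 was the lowest of the 3 for Hamp, Id1, Smad7, Atoh8 and Socs3 and the highest for Bmp6 and Tfrc.

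In biliary cells none of the 18 rose and 1 fell, where 5.68% of all genes rose and 4.74% fell. The median lay close to that of all genes (-0.02). An unadjusted p under 0.05 was found for 7, a share not counted over all genes. By adjusted p alone, 3638 of 13905 genes passed. Atoh8 had 6.29, 9.31 and 6.19 scaled TPM in DDC biliary cells and 65.1, 51.2 and 61.1 in untreated biliary cells (log2 difference -2.88 ± 0.45, adjusted p = 0.000478). Id1 was 127, 69.0 and 88.0 under DDC and 256, 159.5 and 252 without it, and was not called (log2 difference -1.24, adjusted p = 0.0703). The responses differed between the cell types for 4 of the 18, where 8.4% of all genes were called (3.46% above 0 and 4.94% below). Each was lower in biliary cells minus hepatocytes: Id1 by -5.96 (adjusted p = 9.32e-05), Atoh8 by -3.55 (adjusted p = 0.0025), Bmp6 by -2.39 (adjusted p = 0.00376) and Smad6 by -1.49 (adjusted p = 0.00478). All 4 held with each library left out and on TPM as deposited.

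Of 6 tested genes of the inflammatory input, 1 was called for DDC in hepatocytes and 0 in biliary cells. Over all genes, 11% and 10.4% were called. The median log2 differences were 0.28 and 0.57, against 0.01 and -0.02 over all genes, and 4 and 3 had an unadjusted p under 0.05. That share was not counted over all genes, of which 3898 and 3638 of 13905 passed by adjusted p alone. In biliary cells Stat3 (0.75), Jak2 (0.62) and Jak1 (0.53), named after their values were seen, rose short of the threshold of 1 (adjusted p from 0.000281 to 0.00361). Il6ra (-0.54) and Il6st (-0.17) did not rise there. In hepatocytes Stat3, Jak2 and Jak1 differed by 0.32, 0.33 and 0.24 (adjusted p = 0.0443, 0.0598 and 0.128). The called gene was Socs3, a feedback inhibitor that STAT3 induces. It had 10.2, 43.2 and 55.0 scaled TPM in DDC hepatocytes and 1.90, 2.39 and 1.5 in untreated hepatocytes (log2 difference 3.38 ± 0.57, adjusted p = 0.000792). Il6, the ligand itself, did not pass the filter. In biliary cells Socs3 had 10.5, 16.3 and 17.1 under DDC and 5.33, 7.55 and 15.9 without it, overlapping and not called. The difference of the 2 responses, -2.72 ± 0.80 (adjusted p = 0.0423), was lost in 10 of 12 leave-outs (all but DDC hepatocyte library 1 and untreated biliary library 1), with adjusted p between 0.0668 and 0.108.

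**Figure D4:**
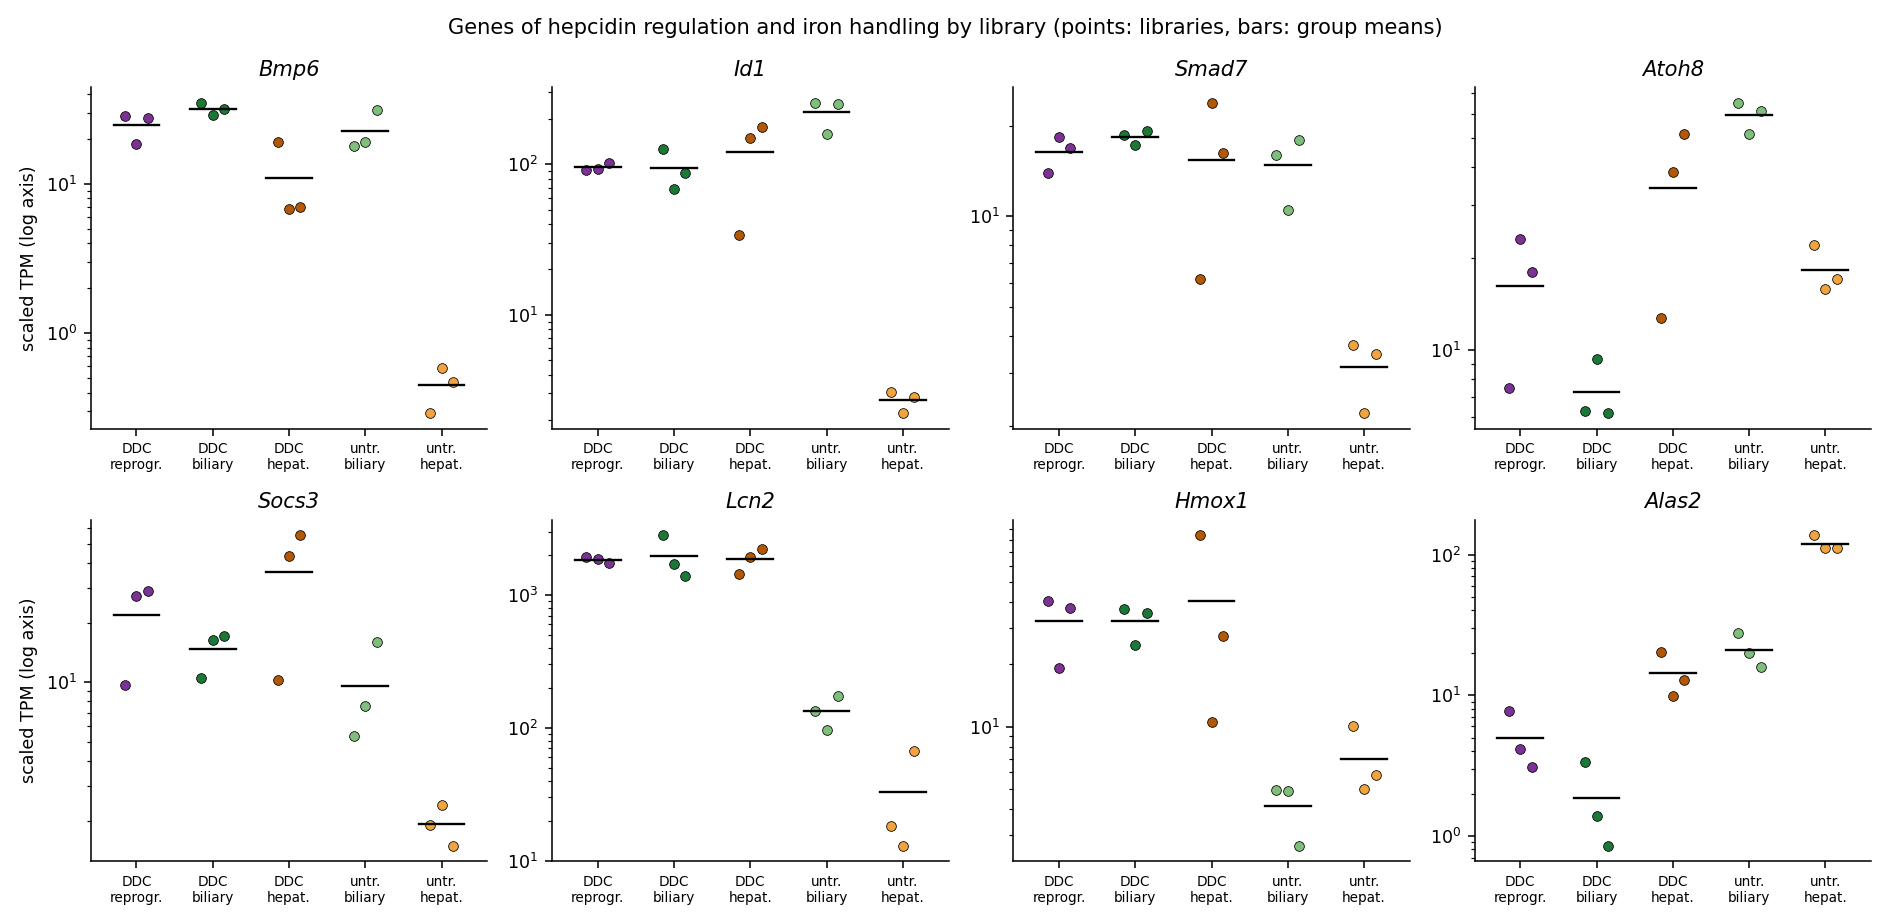
Scaled TPM (log axis, its own range in each panel) of 4 genes of the BMP input to hepcidin, of Socs3, and of Lcn2, Hmox1 and Alas2 in each library; points are libraries and bars are means of 3. Id1 stood between 33.7 and 176 in DDC hepatocytes and between 2.22 and 3.07 in untreated hepatocytes, while in biliary cells it stood between 69.0 and 127 under DDC and between 159.5 and 256 without it. The Id1 difference in biliary cells was not called.

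Other iron transporters and reductases included 4 of 13 that rose in DDC hepatocytes and 3 of 13 in DDC biliary cells, with none falling, where 6.59% and 5.68% of all genes rose (medians 0.18 and 0.24, against 0.01 and -0.02 over all genes). Lcn2, lipocalin 2, which binds bacterial siderophores, had 1426, 1934 and 2224 scaled TPM in DDC hepatocytes and 18.3, 13.0 and 66.8 in untreated hepatocytes (log2 difference 6.12 ± 0.47, adjusted p = 1.52e-06). In biliary cells it had 2806, 1697 and 1400.1 under DDC and 135, 96.7 and 173 without it (3.83 ± 0.47, adjusted p = 7.45e-05). Steap4, an endosomal metalloreductase, rose by 1.21 in hepatocytes (adjusted p = 0.011) and by 1.53 in biliary cells (adjusted p = 0.00293), and the hepatocyte value was 0.94, short of the threshold, without DDC hepatocyte library 1. The Lcn2 responses differed by -2.29, biliary cells minus hepatocytes (adjusted p = 0.0391), a call lost in 8 of 12 leave-outs.

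Scara5, a ferritin receptor, rose by 1.17 in DDC hepatocytes (adjusted p = 0.0207), a call lost without DDC library 2 or untreated library 2 or 3 (adjusted p from 0.0558 to 0.0781). The remaining calls were low genes named after their values were seen: Steap2 in hepatocytes (1.17, adjusted p = 0.000885, below 1 without DDC library 2) and lactoferrin (Ltf) in biliary cells (1.0, adjusted p = 0.0154, under 1 without untreated library 2 or 3, at 0.97 each). Ltf had 2.37, 0.454 and 0.714 scaled TPM in DDC biliary cells and at most 0.047 in untreated biliary cells, so library 1 carried most of its level, and it no longer passed the filter without DDC biliary library 1 or 3.

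Heme scavenging and heme iron release included 4 of 11 genes that rose in DDC hepatocytes and 2 of 11 in DDC biliary cells, again with none falling, where 6.59% and 5.68% of all genes rose (medians 0.21 and 0.14). Hmox1, heme oxygenase, which frees iron from heme, had 83.9, 10.5 and 27.5 scaled TPM in DDC hepatocytes and 10.1, 5.01 and 5.83 in untreated hepatocytes (log2 difference 1.98 ± 0.56, adjusted p = 0.0186, lost without untreated library 2 or 3 at 0.0529 to 0.065). In biliary cells it had 36.8, 24.8 and 35.3 under DDC and 4.91, 4.87 and 2.66 without it (2.71 ± 0.56, adjusted p = 0.00335). All DDC libraries lay above all untreated ones in both cell types.

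Among heme transporter genes, Flvcr2 rose in hepatocytes by 1.64 (adjusted p = 0.000228) and Flvcr1, the plasma membrane heme exporter, in biliary cells by 1.21 (adjusted p = 0.000166). Slc48a1, which returns heme from lysosomes, rose in hepatocytes by 1.10 (adjusted p = 0.000311, 0.88 without DDC library 1), and its response differed between the cell types by -1.09 (adjusted p = 0.007, -0.87 without DDC hepatocyte library 1). Haptoglobin (Hp), which binds free hemoglobin, rose in hepatocytes by 1.06 (adjusted p = 0.0296), a call lost without DDC library 2 or 3 or any untreated library (adjusted p from 0.0595 to 0.0881).

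No gene of the 8 for cellular iron sensing and ferritin turnover and none of the 12 for mitochondrial iron and iron-sulfur clusters was called for DDC in hepatocytes or biliary cells. The shares over all genes were 11% and 10.4%, and lists this small cannot be set apart from them by these counts. An unadjusted p under 0.05 was found for 3 and 3 of them in hepatocytes and for 0 and 3 in biliary cells. The share of all genes at that level was not counted, so these numbers are no sign of a response. By adjusted p alone, 3898 of 13905 genes passed in hepatocytes and 3638 in biliary cells. The 8 sensing genes had a median log2 difference of -0.16 in hepatocytes and -0.10 in biliary cells, and the 12 mitochondrial genes of 0.00 in hepatocytes and -0.08 in biliary cells. The medians over all genes were 0.01 and -0.02.

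Alas2, which holds the same kind of element as the ferritin chains, had 20.3, 9.87 and 12.9 scaled TPM in DDC hepatocytes and 137, 111 and 111 in untreated hepatocytes (log2 difference -3.02 ± 0.35, adjusted p = 5.42e-05). In biliary cells it had 3.33, 1.38 and 0.851 under DDC and 27.5, 19.9 and 15.9 without it (-3.02 ± 0.35, adjusted p = 5.54e-05). It fell in both cell types without overlap, and both calls held with each library left out. Alas2 is an erythroid marker, and the 9 erythroid markers summed to 19.5 to 26.7 scaled TPM in DDC hepatocytes and 115 to 140 in untreated hepatocytes. Alas2 made up most of the sum in untreated hepatocytes, and Klf1 and Hba-a1 added to it in DDC hepatocytes, where Klf1 had 0.595, 7.03 and 2.61 scaled TPM. Of the defining markers, Hbb-bs and Hba-a2 were listed at 0 in every library, and Hba-a1 was 4.18, 5.69 and 2.75 in DDC hepatocytes and 0, 1.81 and 2.60 in untreated hepatocytes.

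Some macrophage markers also moved with DDC, both in hepatocytes, where Hamp, Hmox1, Flvcr2, Slc48a1 and Hp rose, and in biliary cells. The sum over 12 such markers was 40.3 to 62.1 scaled TPM in DDC hepatocytes and 21.4 to 43.0 in untreated hepatocytes. Of 11 tested, Lyz2 and Cd68 were called higher and Clec4f lower, where 6.59% of all genes rose and 4.42% fell. Cd68 had 31.5, 5.71 and 6.43 scaled TPM in the DDC hepatocyte libraries. The sum in DDC biliary cells was 85.3 to 190 and in untreated biliary cells 86.3 to 122. There Lyz2 was called higher (2.18, adjusted p = 0.00168) and Clec4f lower (-2.18, adjusted p = 0.00123), where 5.68% of all genes rose and 4.74% fell. Cd163, the macrophage receptor for hemoglobin and haptoglobin, was below 0.2 scaled TPM in each DDC hepatocyte library and between 0.381 and 0.750 in untreated ones. The part of macrophages in these results was not tested.

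Between cell types, 4 of the 10 genes were called lower in reprogrammed cells than in DDC hepatocytes and none higher, where 19.5% of all genes were called, 13.7% higher and 5.77% lower. These were Tfr2 (log2 difference -1.44, adjusted p = 0.0131), Hpx (-1.38, adjusted p = 0.0104), Trf (-1.31, adjusted p = 0.0344) and Ftl1 (-1.05, adjusted p = 0.0023). None of the 4 was called on TPM as deposited, where the values were -0.65, -0.59, -0.52 and -0.25, and Tfrc was the 1 called gene there, higher by 1.05 (adjusted p = 0.00657) against 0.33 when scaled (adjusted p = 0.301). After quantile normalization none was called either: Tfr2 was at -0.91, Hpx at -0.34 and Trf at -0.08, and Ftl1 turned to 0.038. Trf lost its call without reprogrammed library 1 or 3 or DDC hepatocyte library 2 or 3 (adjusted p from 0.0667 to 0.148), Tfr2 without reprogrammed library 1 (adjusted p = 0.0644) and Ftl1 without DDC hepatocyte library 1 (log2 difference -0.99).

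Same-numbered libraries of reprogrammed cells and DDC hepatocytes deviated together, and in each of the 3 pairs Hamp was lower in reprogrammed cells, by -1.56, -0.84 and -1.97. Its difference of -1.46 ± 0.66 was not called without pairing (adjusted p = 0.0866), but was called with the library number as a block (adjusted p = 0.00428) or without reprogrammed library 2 or DDC hepatocyte library 1 (adjusted p from 0.031 to 0.0406). As deposited the difference was -0.66 and not called.

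Against DDC biliary cells, reprogrammed cells had 1 called gene, Hpx, where 3.51% of all genes were called (2.78% higher and 0.734% lower). Hpx had 4041, 10888 and 7067 scaled TPM in reprogrammed cells and 2647, 4240.4 and 1761 in DDC biliary cells (log2 difference 1.33 ± 0.39, adjusted p = 0.0382, lost without reprogrammed library 2 or 3 or biliary library 1 or 3 at 0.0742 to 0.167). With the library number as a block 4 genes were called higher, Hpx (adjusted p = 0.0201), Tfr2 (log2 difference 1.34, adjusted p = 0.00657), Hamp (1.27, adjusted p = 0.0219) and Trf (1.29, adjusted p = 0.0433). For Hamp the 3 paired differences were 0.64, 1.29 and 1.87. Tfrc had 17.9, 12.7 and 13.2 in reprogrammed cells, below every DDC biliary library, and the log2 difference of -0.78 ± 0.25 was not called (adjusted p = 0.0519) except as deposited (-1.09, adjusted p = 0.0212).

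DDC biliary cells differed from DDC hepatocytes in 8 of the 10 genes, where 34.6% of all genes were called (20.2% higher and 14.4% lower). Tfrc was higher (log2 difference 1.11 ± 0.25, adjusted p = 0.00163), more so as deposited (2.14), although it was below 1 without DDC hepatocyte library 3 (0.86). It was also below 1, and so not called, after quantile normalization (0.99) and with a pseudocount of 5 (0.89). Lower were Tfr2 (-2.78), Hamp (-2.72), Hpx (-2.71) and Trf (-2.60), each also called lower as deposited (-1.69, -1.61, -1.60 and -1.49), and Ftl1 (-2.01), which was -0.90 as deposited. After quantile normalization Hamp (-0.93, adjusted p = 0.168), Hpx (-0.99), Trf (-0.48, adjusted p = 0.251) and Ftl1 (-0.15) were no longer called. Fth1 (-1.39) was not called as deposited (-0.28) and turned to 0.30 after quantile normalization. Cp (-1.04) turned to 0.07 as deposited and 0.29 after quantile normalization, and lost its call without DDC biliary library 3 or DDC hepatocyte library 2.

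Untreated biliary cells were lower than untreated hepatocytes in 7 of the 10, where 37.2% of all genes were called (21.6% higher and 15.6% lower). Hamp (-2.56), Tfr2 (-2.53), Hpx (-2.41), Trf (-2.33) and Ftl1 (-2.08) kept the sign as deposited (-1.29, -1.27, -1.14, -1.05 and -0.80), though Hamp (adjusted p = 0.0558) and Ftl1 were then not called. Quantile normalization ended the calls of Hamp (-1.15, adjusted p = 0.0922), Hpx (-0.53, adjusted p = 0.098), Trf (-0.21, adjusted p = 0.617) and Ftl1 (-0.11, adjusted p = 0.604). Fth1 (-1.40) was -0.12 as deposited and turned to 0.38 after quantile normalization, and Slc11a2 (-1.10) turned to 0.11 as deposited. Cp, at 0.40 and not called when scaled, was called higher in untreated biliary cells as deposited (1.67, adjusted p = 9.47e-06). Tfrc, at -0.77 when scaled and 0.45 as deposited, was called on neither scale.

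Set against the hepatocyte markers in deposited TPM, 4 members stood close to the marker median. In DDC biliary cells Tfr2, Hamp, Hpx and Trf stood at 32.4%, 32.3%, 34.2% and 36.2% of their deposited mean in DDC hepatocytes, near the marker median of 34.3%. In untreated biliary cells they stood at 41.6%, 41.4%, 45.9% and 48.5% of untreated hepatocytes (marker median 42.8%), and in reprogrammed cells at 66.5%, 64.3%, 69.0% and 72.5% of DDC hepatocytes (marker median 68.3%). The part of hepatocyte RNA in the biliary and reprogrammed values of these genes was not tested. Ftl1 stood above the marker median, at 83.2% in reprogrammed, 53.8% in DDC biliary and 57.2% in untreated biliary cells. It stayed within the range of the markers (55.9% to 91.6%, 28.3% to 60.6% and 35.9% to 112% in that order). Fth1 and Slc11a2 also lay within that range in untreated biliary cells.

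In deposited TPM, where the median gene is itself higher in these cells, the other genes stood near or above the hepatocyte level, whereas in scaled TPM Fth1, Cp, Slc40a1 and Slc11a2 were below it in DDC biliary cells (ratios of means 0.391, 0.466, 0.580 and 0.594). Fth1 was at 101% in reprogrammed cells, 83.6% in DDC biliary cells and 91.6% in untreated biliary cells. Slc40a1 was at 119%, 127% and 132% in the same order, and Slc11a2 at 105%, 125% and 108%. Cp was at 114% in reprogrammed cells, 101% in DDC biliary cells and 320% in untreated biliary cells, and Tfrc at 212%, 454% and 139%.

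**Figure D5:**
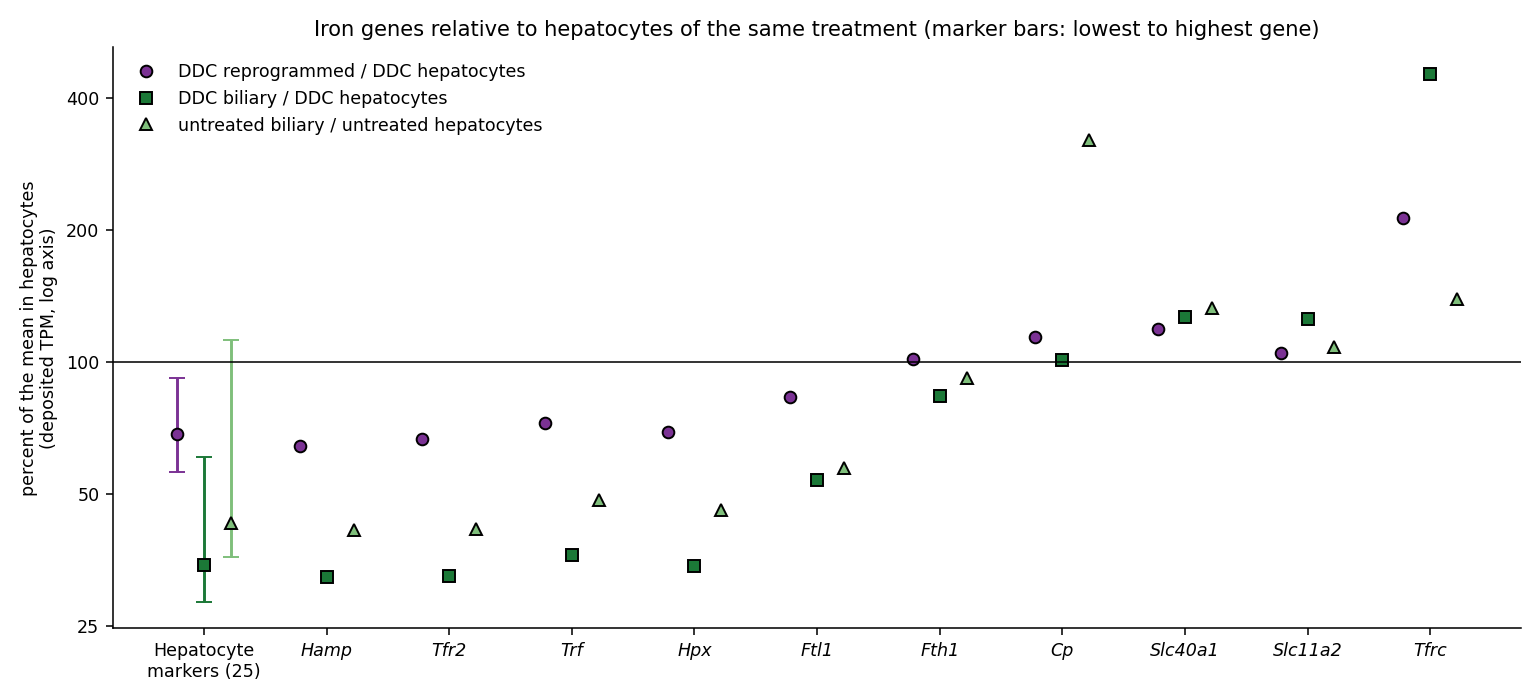
Mean deposited TPM of each iron gene as a percentage of the mean in hepatocytes of the same treatment (log axis), beside 25 hepatocyte markers (median, with bars to the lowest and highest marker). Hamp, Tfr2, Trf and Hpx lie near the marker medians of 68.3%, 34.3% and 42.8%, and Tfrc reaches 454% in DDC biliary cells.

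Between cell types the counts over the pathway lists turned with the scaling, as did those over all genes. Against DDC hepatocytes, 20.2% of all genes were called higher and 14.4% lower in DDC biliary cells. Those were 2811 and 1999 of 13905 genes, and 7142 and 645 as deposited. In reprogrammed cells 13.7% were higher and 5.77% lower, or 1906 and 802 genes, and 4240 and 9 as deposited. Of the 18 genes feeding hepcidin, 4 were higher and 5 lower in DDC biliary cells than in DDC hepatocytes (12 and 2 as deposited), and 1 was higher and 2 lower in reprogrammed cells (10 and 0 as deposited). Of the 13 other transporters and reductases, 2 were higher and 6 lower in DDC biliary cells (6 and 2 as deposited), and 3 higher and 3 lower in reprogrammed cells (3 and 0 as deposited). The genes named next kept their direction and call on both scales unless stated.

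Hfe2, the BMP co-receptor hemojuvelin, differed by -2.60 between DDC biliary cells and DDC hepatocytes (adjusted p = 9.91e-07) and Tmprss6, a protease that cleaves it, by -2.16 (adjusted p = 1.33e-06). Bmp6 went the other way, higher by 1.61 in DDC biliary cells (adjusted p = 0.000738) and by 1.24 in reprogrammed cells (adjusted p = 0.00691) than in DDC hepatocytes, and by 4.00 in untreated biliary cells than in untreated hepatocytes (adjusted p = 2.74e-07). Reprogrammed cells had 28.7, 47.8 and 37.5 scaled TPM of Hfe2 against 20.7, 20.9 and 12.3 in DDC biliary cells (log2 difference 1.05, adjusted p = 0.0147). That call was lost without reprogrammed library 2 or DDC biliary library 3 (adjusted p of 0.0708 and 0.0707) and was not made as deposited.

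Of the other transporters, Slc22a17, a lipocalin 2 receptor, was higher than in DDC hepatocytes by 2.86 in DDC biliary cells (adjusted p = 1.95e-06) and by 2.32 in reprogrammed cells (adjusted p = 2.85e-05). Heph, hephaestin, a membrane ferroxidase related to Cp, was higher by 2.60 in DDC biliary cells (adjusted p = 9.88e-07) and by 2.02 in reprogrammed cells (adjusted p = 2.04e-05). It had 5.56, 2.29 and 2.49 scaled TPM in the reprogrammed libraries, 6.17, 4.77 and 5.03 in those of DDC biliary cells and at most 0.0667 in DDC hepatocytes, and Heph and Slc22a17 in reprogrammed cells were named after their values were seen. The endosomal reductase Steap3 and Lrp1, the receptor for heme bound to hemopexin, were lower in DDC biliary cells by -2.32 (adjusted p = 0.000213) and -2.30 (adjusted p = 1.39e-05).

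In pattern over the 15 libraries, the genes closest to Hpx were Hp (Pearson r = 0.996) and Ccl9 (0.995) among 9457 genes compared, and those closest to Hamp were Tspan4 (0.971) and Tmem267 (0.958). Tfrc had no neighbour so close, its nearest being Me1 (0.886) and Chd3 (0.862). Tfr2 lay nearest Serpina3n and Cyp2d26, Trf nearest Hoga1 and Itih3, Ftl1 nearest Cideb and Pgam1, and Fth1 nearest Ephx1 and Entpd5, at 0.989 or above. Cp (Nudt4, Asrgl1), Slc40a1 (Nucks1, Gnl3) and Slc11a2 (Rnf11, Atp6v1h) had nearest values between 0.939 and 0.948. These correlations are descriptions over groups that differ in cell type and treatment, and libraries share the scaling.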

How the data were processed

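Gene-level TPM of 15 libraries was deposited by the authors in 1 table. It came from Salmon on mm10, per the submitters' processing notes. The version, annotation and strand setting are not given in the sources used here. TPM keeps no read totals, so depth is unknown and no counting interval is given.

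Deposited TPM was divided by the median ratio to the geometric mean over 11924 genes above 0 in every library. Genes with at least 1 TPM in at least 3 libraries (13905 of 24493) were fitted as log2(scaled TPM + 1) with limma 3.58.1 in R 4.3.3, with a mean-variance trend and 1 fit of all 5 groups, 10 residual degrees of freedom and Benjamini-Hochberg adjustment. A log2 difference on this scale understates the change of low genes. The procedure was tested on simulated data.

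Members and gene lists were chosen with earlier results of these data known. Besides the members, the up to 4 called genes of each list and comparison with the largest difference were named where 1 group reached 5 scaled TPM. Others were named outside this rule, and not all of them are marked where named.

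Deviations of same-numbered libraries correlated at 0.136 to 0.449 (reprogrammed and hepatocyte), 0.208 to 0.456 (reprogrammed and biliary) and 0.15 to 0.236 (untreated biliary and hepatocyte), above 0.1 in every pair, so these numbers were taken to pair libraries. DDC biliary and hepatocyte libraries, at 0.0436 to 0.319, did not all meet this, but each same-numbered value lay above every other-numbered one (at most 0.0304). Both groups also pair with the reprogrammed libraries, so the cut does not show them to be unpaired. With the block the same members were called between these 2 groups. DDC and untreated libraries (from -0.118) did not meet the cut. Alternatives were other scalings, pseudocounts and filters, the block, only the compared groups, and leaving out each library.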

Additional observations from a re-analysis of the deposited data

Results flagged for a closer look

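Tfrc was singled out because its response to DDC differed between cell types by a test of the difference itself, 1.87 on the log2 scale for biliary cells minus hepatocytes (adjusted p = 0.00339, limma). Every DDC hepatocyte library lay below every untreated one, and every DDC biliary library above every untreated one.

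Cp was singled out for the same kind of difference in the other direction, -1.44 (adjusted p = 0.0263), with every DDC hepatocyte library above every untreated one and overlapping biliary groups. The Cp call was less stable, lost in 5 of 12 leave-outs (adjusted p from 0.0548 to 0.068) against 0 of 12 for Tfrc.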

How the results depend on the processing

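Of 1110 alternative values for single members, 57 lost the call in the same direction, 37 gained it, and 60 had the other sign: 6 of members called when scaled and 54 of members not called. These 60 were 18 as deposited, 14 by quantile and 28 on leaving out a library, and the cause was not tested. Of 1043 for other named genes, 927 kept direction and call and 116 lost the call. As deposited, 1 member was called in reprogrammed cells against DDC hepatocytes, 3 in reprogrammed against biliary cells, 5 in DDC biliary cells against hepatocytes, 4 in untreated biliary cells against hepatocytes, 5 in DDC against untreated hepatocytes and 1 in DDC against untreated biliary cells. Quantile normalization gave 0, 0, 1, 3, 5 and 2 in that order. The 6 turns of called members were Cp in DDC biliary cells against hepatocytes (0.068 as deposited, 0.29 by quantile), Slc11a2 in untreated biliary cells against hepatocytes (0.11 as deposited), and by quantile Ftl1 in reprogrammed cells against DDC hepatocytes (0.038) and Fth1 in biliary cells against hepatocytes (0.30 under DDC, 0.38 untreated).

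For reprogrammed against biliary cells, a pseudocount of 0.1, no filter and a fit of only the compared groups each gave 0 called members, a pseudocount of 5, a filter of 5 TPM and adjusted p alone each gave 2, and the replicate block gave 4. Only the compared groups gave 0 for reprogrammed cells against DDC hepatocytes. The block added Hamp in DDC against untreated biliary cells (1 called member), where numbers did not pair libraries, and changed no other member count by over 1.5 times. Leaving out a library gave 2 to 5 called members for reprogrammed cells against DDC hepatocytes, 0 to 3 against biliary cells, 7 to 8 for DDC biliary cells against hepatocytes, 7 to 8 for untreated biliary cells against hepatocytes, 2 to 4 for DDC against untreated hepatocytes, 0 for DDC against untreated biliary cells and 1 to 2 for the difference of responses.

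Over all genes, TPM as deposited called 4240 higher and 9 lower in reprogrammed cells against DDC hepatocytes (1906 and 802 scaled), 120 and 576 in reprogrammed against biliary cells (386 and 102), 7142 and 645 in DDC biliary cells against hepatocytes (2811 and 1999) and 7350 and 470 in untreated ones (2999 and 2173). A pseudocount of 5 called 1482, 298, 3023 and 3371 in these comparisons, 797 rather than 1532 for DDC in hepatocytes, 750 rather than 1449 in biliary cells and 582 rather than 1168 for the difference. A pseudocount of 0.1 called 2330 for DDC in hepatocytes. Adjusted p alone called 6620, 2053, 9095, 9298, 3898, 3638 and 1780 in the same order. Reprogrammed against biliary cells had 488 calls, 3 with only the compared groups, 832 and 137 without reprogrammed library 1 or 2, and 103 without biliary library 3. With 3 libraries a group, calls near the threshold are uncertain, and depth is unknown.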
